A study of Macaca mulatta with 36 samples.

Results

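Potassium channel genes were followed in the hippocampus of rhesus macaques with simian immunodeficiency virus encephalitis (SIVE) and of uninfected control macaques. The members are the genes whose symbol begins with KCN, read from probe sets that carry exactly 1 gene symbol, with KCNJ13 left out. Each gene was represented by its probe set of highest mean over all arrays, a choice that does not use the groups. This gave 73 genes in 20 subfamilies among 14132 genes with a named probe set, drawn from 112 probe sets. A total of 27 members had more than 1 probe set. Other KCN genes were not analysed here. The study hybridised total RNA from 9 SIVE animals and 9 controls, all male, to Affymetrix rhesus arrays, with 2 technical replicate arrays per animal. The SIVE animals were 2 to 6 years old and 4 of the 9 had received anti-CD8 treatment; these 4 were all 6 years old. The controls were 3 to 8 years old and 2 of the 9, aged 3 and 4 years, had received it. Anti-CD8 antibodies are used in macaques to deplete CD8-bearing lymphocytes. The labels used here do not name the virus strain, the time after infection or the antibody's clone.

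Signals were deposited on the log2 scale, so a difference of 1 is a 2-fold change, and array medians lay between 5.59 and 5.75. The number of animals limits the precision: the median standard error (SE) of a difference was 0.0972 over the members and 0.0885 over all probe sets. Of the 73 members, 47 had a mean signal at or above 5.65, the median of all probe sets, and the other 26 were below it. Among the 4 measured hippocampal region markers 3 were at or above that median, PROX1 and NEUROD6 among them, while TDO2 was below it. SIVE 2, SIVE 3 and Control 8, all given anti-CD8, stood apart in the 3′ minus 5′ signal of control transcripts (GAPDH, ACTB and EEF1A1), a measure that moves with RNA degradation and with labelling. Their values lay between 0.955 and 1.45, against 0.104 to 0.466 in the other 15 animals. The counts of members past the threshold, and the genes that vary most in these 3 animals, are given with and without them.

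Potassium channels let potassium leave, or in some cases enter, the cell along its electrochemical gradient, and so set the resting potential, shape the action potential and limit repetitive firing. Voltage-gated channels are tetramers of pore subunits, to which modifier, cytoplasmic and small membrane subunits attach. Calcium-activated channels couple firing to calcium entry, inward rectifiers and tandem-pore channels hold the resting potential, and in the hippocampus astrocytes use inward rectifiers to clear potassium released by neurons.

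Lower signal in SIVE hippocampus was found for 4 genes of different subfamilies: KCNQ3, a subunit of the M-current channel that restrains repetitive firing; KCNMA1, the pore of the large-conductance calcium-activated (BK) channel; KCNJ4, a strong inward rectifier of forebrain neurons; and KCNH5, a voltage-gated channel of the ether-à-go-go family. Their signal was 1.21-fold to 1.43-fold lower. In limma with Benjamini-Hochberg adjustment over 52707 probe sets and a threshold of 0.05, 4 of 73 members were lower, 0 were higher and 69 did not pass. That is 5.48% of the members, beside 4.92% of all probe sets in either direction (1.3% lower and 3.63% higher) and 7.23% of the named genes (1.51% lower and 5.72% higher). At an unadjusted p below 0.05, 18 members (24.7%) were lower and 5 (6.85%) higher, against 12.7% and 12.9% of the named genes. The difference was below 0 in 51 of 73 members (69.9%), against 55.6% of the named genes and 62.7% of all probe sets. Its median was −0.11 over the members, against −0.02 over the named genes and −0.04 over all probe sets. These signs are those of the probe set chosen for each gene. Of the 27 members with more than 1 probe set, 16 had the same sign in all of them. Of the members' other probe sets, 0 passed the test. No member differed by 2-fold, the largest absolute difference being 0.53. For 0 members did all SIVE animals lie below all controls, as they did for 0.106% of the named genes.

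The count of 4 rested on single animals. It was 2 without SIVE 3, SIVE 5, Control 7 or Control 9, taken out one at a time, KCNQ3 and KCNMA1 being past the threshold each time. The count of higher members was 2 without SIVE 8 (KCNK13 and KCNMB1). It was 1 without SIVE 9 (KCNK13), Control 3 (KCNMB1), Control 6 (KCNK5) or Control 9 (KCNE3). Without SIVE 2, SIVE 3 and Control 8 together, 3 members were lower (KCNQ3, KCNMA1 and KCNH5) and 1 was higher (KCNE3).

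**Figure D1:**
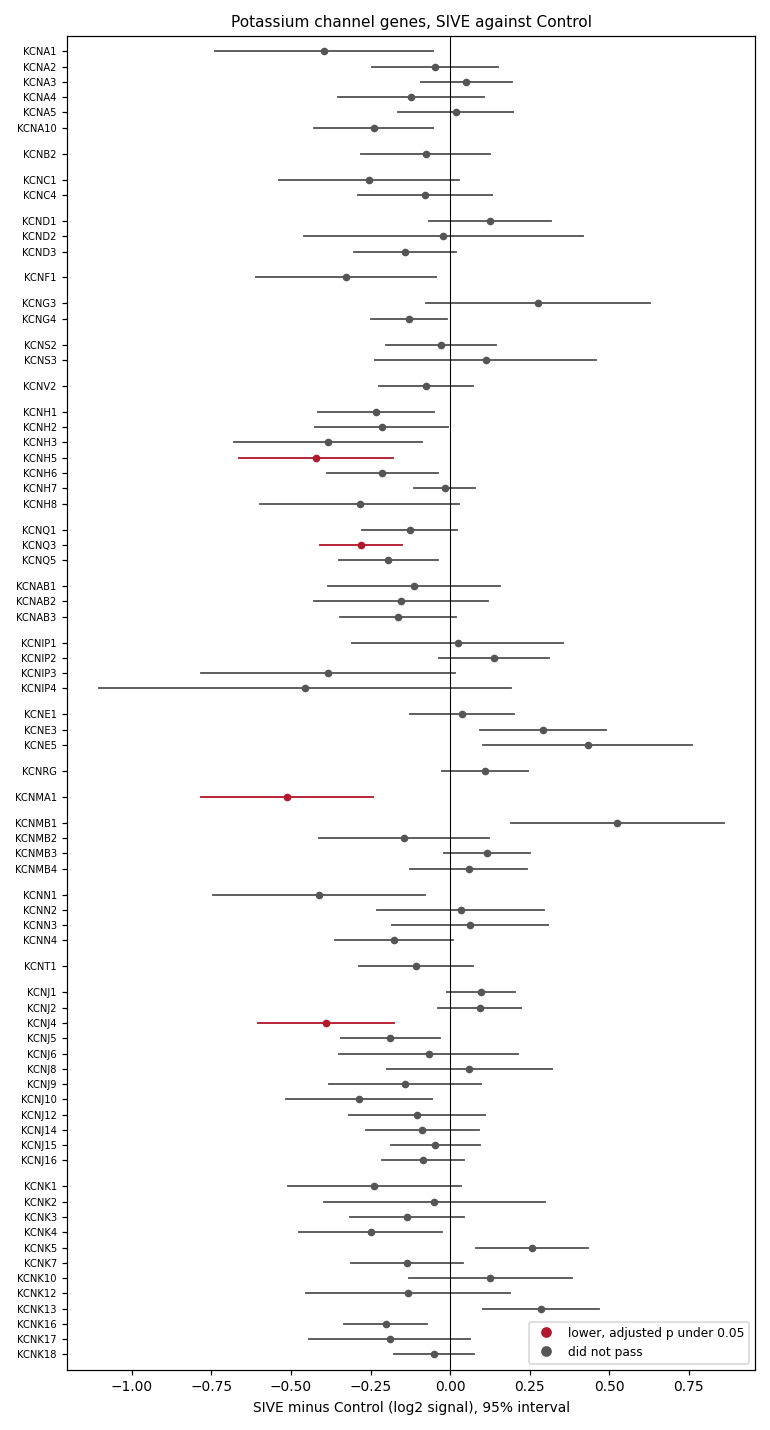
Difference in log2 signal, SIVE minus Control (horizontal axis), for the 73 potassium channel genes grouped by subfamily, with 95% confidence intervals as bars. KCNQ3, KCNMA1, KCNJ4 and KCNH5, marked as past the adjusted threshold, lie below 0, and KCNMB1 has the largest positive difference (0.53).

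KCNQ3 fell with the smallest adjusted p of the members. Its log2 signal was 6.41 at the lowest, 6.72 at the median and 6.81 at the highest SIVE animal, against 6.79, 6.93 and 7.15 in controls. Only the highest SIVE animal, SIVE 3, reached into the control range, so that 8 of 9 SIVE animals lay below the lowest control. The means were 6.66 ± 0.13 in SIVE and 6.94 ± 0.11 in controls (SD, n = 9 each), a difference of −0.28 ± 0.06 (SE; 95% interval −0.41 to −0.15; adjusted p = 0.00839), or 1.21-fold lower. KCNQ3 stayed past the threshold in each of 15 other settings and each of 18 fits with 1 animal left out. The setting that averaged a gene's probe sets left its difference at −0.28, as in the main fit. Agreement between probe sets was thus not examined for KCNQ3.

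KCNMA1 had the largest fall. Its signal ran over 6.12, 6.80 and 7.13 (lowest, median and highest) in SIVE animals, against 7.03, 7.23 and 7.83 in controls. The lowest SIVE value came from SIVE 8 and the highest control values from Control 7 and Control 5, and 6 of 9 SIVE animals lay below the lowest control. The means were 6.78 ± 0.32 and 7.30 ± 0.26 (SD, n = 9 each), a difference of −0.51 ± 0.13 (SE; adjusted p = 0.0231), or 1.43-fold lower. The other 2 KCNMA1 probe sets did not pass, with differences of −0.12 (adjusted p = 0.674) and 0.09 (adjusted p = 0.724). With the mean of its probe sets KCNMA1 did not pass (−0.18, adjusted p = 0.282), nor on the first technical replicate array alone (−0.44, adjusted p = 0.0731). The call thus rests on 1 of its 3 probe sets, whose identifier ends in _s_at, which on these arrays marks probes that may match more than 1 transcript.

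KCNJ4 fell as well. Its signal was 7.32, 7.83 and 8.05 (lowest, median and highest) in SIVE animals, against 7.94, 8.11 and 8.58 in controls. SIVE 9 was lowest and Control 8 highest, and the groups overlapped only through SIVE 1 and SIVE 6. The means were 7.79 ± 0.23 and 8.17 ± 0.22 (SD, n = 9 each), a difference of −0.39 ± 0.10 (SE; adjusted p = 0.0312), or 1.31-fold lower. The mean over its probe sets gave the same difference, so agreement between probe sets was not examined for this gene. KCNJ4 missed the threshold without SIVE 3, SIVE 5, SIVE 7, SIVE 9, Control 7 or Control 9, with adjusted p of 0.0501 to 0.0619 and differences of −0.33 to −0.39. It also missed it without SIVE 2, SIVE 3 and Control 8 together (−0.35, adjusted p = 0.0531) and without SIVE 9 and Control 8 (−0.28, adjusted p = 0.0606), the last a choice made after seeing the data.

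KCNH5 was the fourth gene past the threshold, and the only one whose signal lay below the median of all probe sets. Its signal was 4.72, 5.07 and 5.28 (lowest, median and highest) in SIVE animals, against 4.97, 5.61 and 5.79 in controls. Control 6 and Control 8 lay inside the SIVE range and the other 7 controls above it, and 3 of 9 SIVE animals lay below the lowest control. The means were 5.06 ± 0.20 and 5.48 ± 0.31 (SD, n = 9 each), a difference of −0.42 ± 0.12 (SE; adjusted p = 0.0408), or 1.34-fold lower. Its second probe set had a difference of −0.20 (adjusted p = 0.193). KCNH5 missed the threshold in 12 of 18 fits with 1 animal left out, those without SIVE 2, 3, 5, 6 or 8 or without Control 1, 2, 3, 4, 5, 7 or 9, with adjusted p of 0.0511 to 0.0817. All 9 SIVE animals lay below the control mean for each of KCNQ3, KCNMA1, KCNJ4 and KCNH5. In bulk tissue a smaller share of the cells that express a gene and less RNA per cell cannot be told apart.

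**Figure D2:**
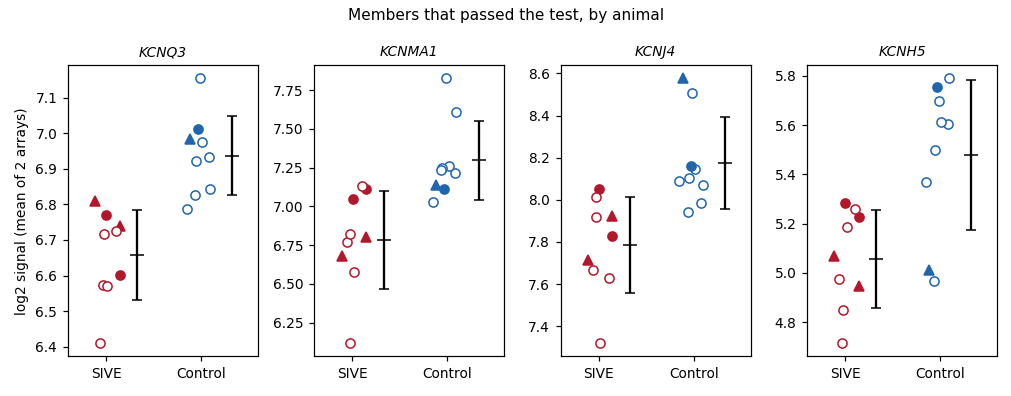
Log2 signal (vertical axis, mean of 2 arrays) of KCNQ3, KCNMA1, KCNJ4 and KCNH5 in each of 9 SIVE animals (left, red) and 9 controls (right, blue), with bars for the mean ± SD. Filled marks are animals given anti-CD8, triangles among them SIVE 2, SIVE 3 and Control 8; all SIVE animals lie below the control mean in each panel.

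In the EAG family all 7 measured members were below 0. Of the 7, 2 had a mean signal at or above the median of all probe sets. Differences below 0 made up 55.6% of the named genes and 62.7% of all probe sets. Among named genes at or above that median the share was 48.9%. It was therefore above 55.6% among the named genes below that median, where the other KCNH members lie. The KCNH genes encode the ether-à-go-go, ERG and ELK voltage-gated channels, which set excitability near threshold. Of these, 1 fell (KCNH5), 0 rose and 6 did not pass, with a median of −0.23. KCNH3, an ELK channel of forebrain neurons, had means of 8.27 ± 0.31 in SIVE and 8.65 ± 0.32 in controls (SD, n = 9 each), and all 9 SIVE animals lay below its control mean. Its difference of −0.38 ± 0.14 (SE) did not pass (adjusted p = 0.127). SIVE 9 was the lowest SIVE animal for KCNH3 at 7.51 and Control 8 the highest control at 9.36. The EAG gene KCNH1 (−0.23), the ERG genes KCNH2 (−0.21) and KCNH6 (−0.21) and the ELK gene KCNH8 (−0.28) also did not pass, with adjusted p of 0.134 to 0.282. KCNH7, at −0.02, differed least. Intervals for 5 of the 7 lay wholly below 0.

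All 3 measured KCNQ genes had negative differences, with a median of −0.19. Besides KCNQ3, KCNQ5, which can form M-current channels with it, had 3.96 ± 0.11 in SIVE and 4.15 ± 0.19 in controls (SD, n = 9 each), both below the median of all probe sets. All 9 SIVE animals lay below the control mean of KCNQ5, and its difference of −0.19 ± 0.07 (SE) did not pass (adjusted p = 0.144). KCNQ1, best known from heart and inner ear, had a difference of −0.13 (adjusted p = 0.310).

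Among the 12 classical voltage-gated pore genes (KCNA, KCNB, KCNC and KCND) 0 passed the test, 9 had a difference below 0 and the median was −0.08. KCNA1, a low-threshold axonal channel, had the largest difference: its signal was 5.50, 6.68 and 6.96 (lowest, median and highest) in SIVE animals, against 6.27, 6.85 and 7.31 in controls. SIVE 8 was the lowest of all 18 animals, and the control extremes were both treated animals, Control 9 and Control 8. The difference was −0.40 ± 0.16 (SE; adjusted p = 0.175). KCNA2, which assembles with KCNA1 in axons, had 9.21 ± 0.21 in SIVE and 9.26 ± 0.20 in controls (SD, n = 9 each), a difference of −0.05 with an interval of −0.24 to 0.15. KCNA3, known from T cells and microglia, had a difference of 0.05 (adjusted p = 0.706). KCNC1, a channel of fast-spiking neurons, had a difference of −0.25 ± 0.13 (SE; adjusted p = 0.283) and its relative KCNC4 one of −0.08. KCNB2, of the delayed-rectifier subfamily, was also at −0.08. Of the genes for the transient A-type channel, KCND1 had a difference of 0.13, KCND3 of −0.14 and KCND2 of −0.02 (−0.46 to 0.42), the widest interval of the 12.

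The modifier subunits, which form no channel alone but alter other voltage-gated channels, gave 0 calls among 6 (KCNF1, KCNG3, KCNG4, KCNS2, KCNS3 and KCNV2). KCNF1 had means of 8.40 ± 0.32 in SIVE and 8.73 ± 0.29 in controls (SD, n = 9 each), with all 9 SIVE animals below the control mean. Its difference was −0.33 ± 0.13 (SE; adjusted p = 0.172). KCNG3 leaned the other way, with a difference of 0.28 ± 0.17 (SE; adjusted p = 0.353). KCNG4, KCNS2, KCNS3 and KCNV2 had differences of −0.13, −0.03, 0.11 and −0.08.

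The 11 auxiliary genes of voltage-gated channels (KCNAB, KCNE, KCNIP and KCNRG) had 0 calls, 5 differences below 0 and a median of 0.02. All 3 cytoplasmic beta subunits, KCNAB1, KCNAB2 and KCNAB3, were below 0, at −0.11 to −0.16. All 3 KCNE genes, which encode small single-span subunits, were above 0. Of these, 0 had a mean signal at or above the median of all probe sets. KCNE5 had 5.02, 5.20 and 6.25 (lowest, median and highest) in SIVE animals, against 4.85, 5.03 and 5.22 in controls. SIVE 2, SIVE 7 and SIVE 3 were the high SIVE animals and 4 of 9 exceeded the highest control, and the difference of 0.43 ± 0.16 (SE) did not pass (adjusted p = 0.123). KCNE3 differed by 0.29 ± 0.09 (SE; adjusted p = 0.0869), all 9 SIVE animals being above the control mean. KCNRG, a regulator that binds potassium channel subunits, had a difference of 0.11 (adjusted p = 0.333).

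The KCNIP genes encode calcium-binding partners of the A-type channel, and KCNIP3 is also known as a transcriptional repressor. KCNIP4 had the most variable signal of the 73 members. It was 4.24, 5.51 and 6.20 (lowest, median and highest) in SIVE animals, against 4.39, 5.91 and 7.23 in controls, and the ranges overlapped almost fully. The difference of −0.46 ± 0.31 (SE; adjusted p = 0.409) was smaller than the SD of either group, 0.68 in SIVE and 0.74 in controls. KCNIP3 differed by −0.38 ± 0.19 (SE; adjusted p = 0.253), with SIVE 9 lowest at 6.19 and Control 8 highest at 8.44. KCNIP2 (0.14) and KCNIP1 (0.02) did not pass either.

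Calcium- and sodium-activated channels comprised 6 genes, 1 lower (KCNMA1) and 5 not past the test. KCNN1, a small-conductance channel of the afterhyperpolarisation, was 6.52, 7.40 and 7.86 (lowest, median and highest) in SIVE animals, against 7.45, 7.77 and 8.60 in controls. SIVE 9 was far below the other SIVE animals and Control 8 far above the other controls. The difference of −0.41 ± 0.16 (SE) did not pass (adjusted p = 0.147). Its relatives KCNN2 (0.03) and KCNN3 (0.06) showed little difference, with intervals of −0.23 to 0.30 and −0.18 to 0.31. KCNN4, an intermediate-conductance channel known from blood and microglial cells, had a difference of −0.18 (adjusted p = 0.262). KCNT1, a sodium-activated channel, had one of −0.11.

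The BK beta subunits, which tune the calcium sensitivity and gating of the KCNMA1 pore, had 3 of 4 differences above 0, and none passed the test. KCNMB1, the beta subunit known from vascular smooth muscle, had 5.70, 6.71 and 7.10 (lowest, median and highest) in SIVE animals, against 5.68, 6.12 and 6.67 in controls. SIVE 8 lay within the low control values, and 5 of 9 SIVE animals exceeded the highest control. The difference was 0.53 ± 0.16 (SE), or 1.44-fold higher, the largest of the members in absolute size, with adjusted p = 0.0663. KCNMB1 was past the threshold without SIVE 8 (0.65) and without Control 3 (0.59). KCNMB4, the beta subunit typical of neurons, had 9.96 ± 0.21 in SIVE and 9.91 ± 0.17 in controls (SD, n = 9 each), with an interval of −0.13 to 0.24 for the difference. KCNMB2 and KCNMB3 had differences of −0.14 and 0.12.

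The 12 inward rectifier genes had 1 fall (KCNJ4), 9 differences below 0 and a median of −0.09. KCNJ10, the astrocytic channel that buffers extracellular potassium, was 9.38, 9.87 and 10.3 (lowest, median and highest) in SIVE animals, against 9.78, 10.1 and 10.5 in controls. SIVE 8, SIVE 9 and SIVE 5 lay below the lowest control and 8 of 9 SIVE animals below the control mean. Its difference of −0.29 ± 0.11 (SE), or 1.22-fold lower, did not pass (adjusted p = 0.144). KCNJ16, which assembles with KCNJ10, had a difference of −0.09 at a low signal. KCNJ2, a close relative of KCNJ4, had a difference of 0.09 with an interval of −0.04 to 0.22. The G protein-gated channels KCNJ5, KCNJ6 and KCNJ9 had differences of −0.19, −0.07 and −0.14. KCNJ8, the pore of the ATP-sensitive channel of pericytes, had one of 0.06 (adjusted p = 0.822). KCNJ1, KCNJ12, KCNJ14 and KCNJ15 lay between −0.10 and 0.10.

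Tandem-pore (KCNK) genes encode leak channels. None of the 12 passed the test, 9 were below 0 and the median was −0.13. KCNK13, a leak channel known from microglia, had the highest count of SIVE animals above all controls. Its signal was 4.76, 5.18 and 5.55 (lowest, median and highest) in SIVE animals, against 4.66, 4.87 and 4.97 in controls. All these values lay below 5.65, the median of all probe sets. SIVE 8 and SIVE 9 lay within the control range and the other 7 SIVE animals above it. The difference was 0.29 ± 0.09 (SE; adjusted p = 0.0671), and it passed the threshold without SIVE 8 (0.33) or without SIVE 9 (0.33). KCNK5, an acid-sensitive leak channel, differed by 0.26 ± 0.08 (SE; adjusted p = 0.0883), with all 9 SIVE animals above the control mean. The second probe set of KCNK5 had a difference below 0, from means of 4.73 ± 0.12 in SIVE and 4.82 ± 0.20 in controls (SD, n = 9 each). KCNK16, known from the pancreas, had a difference of −0.20 ± 0.06 (SE; adjusted p = 0.0686). The mechanosensitive channels KCNK2, KCNK10 and KCNK4 had differences of −0.05, 0.13 and −0.25. KCNK1 (−0.24), KCNK3 (−0.14), KCNK7 (−0.14), KCNK12 (−0.13), KCNK17 (−0.19) and KCNK18 (−0.05) did not pass.

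**Figure D3:**
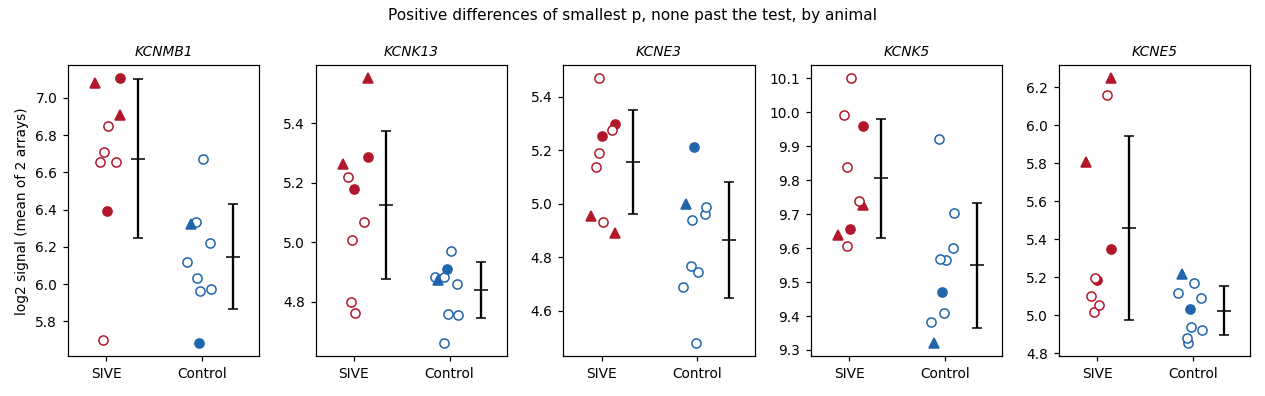
Log2 signal (vertical axis, mean of 2 arrays) by animal for the 5 members with positive differences of smallest p, KCNMB1, KCNK13, KCNE3, KCNK5 and KCNE5, in 9 SIVE animals (left) and 9 controls (right), with the mean ± SD. Marks are as in the plot of the genes past the threshold; the groups overlap in every panel and none of the 5 genes passed the adjusted threshold.

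The groups held unequal numbers of animals given anti-CD8, so the SIVE effect was also fitted within each treatment. Without anti-CD8, 5 SIVE animals were compared with 7 controls. In these animals 2 members fell (KCNQ3 and KCNMA1) and 0 rose, against a background of 3.13% of all probe sets (0.791% lower and 2.34% higher) and 4.77% of the named genes (1.13% lower and 3.64% higher). At an unadjusted p below 0.05, 22 members (30.1%) differed, against 22.5% of the named genes. KCNQ3 had 6.60 ± 0.13 in SIVE (SD, n = 5) and 6.92 ± 0.12 in controls (SD, n = 7), with no overlap, and a difference of −0.32 ± 0.07 (SE; adjusted p = 0.0198). KCNMA1 had 6.68 ± 0.37 and 7.35 ± 0.27, a difference of −0.66 ± 0.16 (SE; adjusted p = 0.0249). KCNA1 ran over 5.50 to 6.69 in SIVE and 6.78 to 7.02 in controls, again with no overlap. Its difference of −0.67 ± 0.18 (SE) lay just outside the threshold (adjusted p = 0.0501), as did that of KCNE3, at 0.41 ± 0.11 (SE; adjusted p = 0.0514). For 3 members, KCNQ3, KCNA1 and KCNN1, all untreated SIVE animals lay below all untreated controls, as for 2.29% of the named genes. The count of 2 became 0 without SIVE 9. It was 1 without SIVE 5 (KCNMA1), without SIVE 8 (KCNQ3) or without Control 5 (KCNQ3), and 4 without SIVE 6, KCNA1 and KCNJ4 being added. Fitted without SIVE 2, SIVE 3 and Control 8, which enter only through the shared spread, 6 members were lower (KCNA1, KCNH5, KCNIP3, KCNMA1, KCNN1 and KCNQ3) and 1 was higher (KCNE3).

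With anti-CD8, 4 SIVE animals were compared with 2 controls. These SIVE animals were all 6 years old and the controls 3 and 4, so SIVE and age cannot be told apart in this contrast. The difference of effects given below uses the same contrast. In limma 0 members passed, against 1.05% of all probe sets (0.209% lower and 0.844% higher). At an unadjusted p below 0.05, 12 members (16.4%) differed, against 16.02% of the named genes. KCNJ4 had 7.88 ± 0.14 in SIVE (SD, n = 4) and 8.37 ± 0.30 in controls (SD, n = 2), a difference of −0.49 ± 0.18 (SE; adjusted p = 0.210). KCNQ3 differed by −0.27 ± 0.11 (SE; adjusted p = 0.253), KCNMA1 by −0.21 ± 0.23 and KCNH5 by −0.25 ± 0.22. KCNMB1 differed by 0.87 ± 0.28 (SE; adjusted p = 0.167) and KCNK13 by 0.43 ± 0.13 (SE; adjusted p = 0.132). The median over the members was −0.14, and it was −0.02 without SIVE 2, SIVE 3 and Control 8, which leaves 2 SIVE animals and 1 control in this contrast. Leaving out Control 8 alone gave −0.03 and SIVE 2 alone −0.08.

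The effect with anti-CD8 minus the effect without it passed the adjusted threshold for 0 members and 0 of 52707 probe sets in limma. At an unadjusted p below 0.05 it did so for 1 member, KCNE3 (−0.41 ± 0.19, SE; p = 0.0483), and 1481 probe sets. The interval of this difference ran from −0.22 to 0.33 for KCNQ3, from −0.14 to 1.03 for KCNMA1 and from −0.01 to 1.33 for KCNA1. Each interval holds 0 as well as the size of the effect seen without anti-CD8, so with these numbers of animals neither is excluded. For KCNQ3 that size lay near the upper end of the interval.

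Animals differed in how many members left the control range. SIVE 9 had 30 of 73 members (41.1%) below the lowest control, against 29.5% of the named genes. The other SIVE animals had between 9 (SIVE 1; 12.3%, against 10.9% of the named genes) and 18 (SIVE 6; 24.7%, against 12.3%). Above the highest control the counts were smaller, from 3 in SIVE 6 (4.11%, against 8.72% of the named genes) to 12 in SIVE 8 (16.4%, against 11.5%). SIVE 9 had 8 there (11.0%, against 23.6%). SIVE 9 was the lowest of all 18 animals for KCNJ4, KCNN1, KCNH3 and KCNIP3, and SIVE 8 for KCNMA1, KCNH5, KCNA1 and KCNJ10. KCNQ3 was lowest in SIVE 5. Apart from KCNQ3, the lowest values of these genes thus came from SIVE 8 or SIVE 9, both without anti-CD8.

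**Figure D4:**
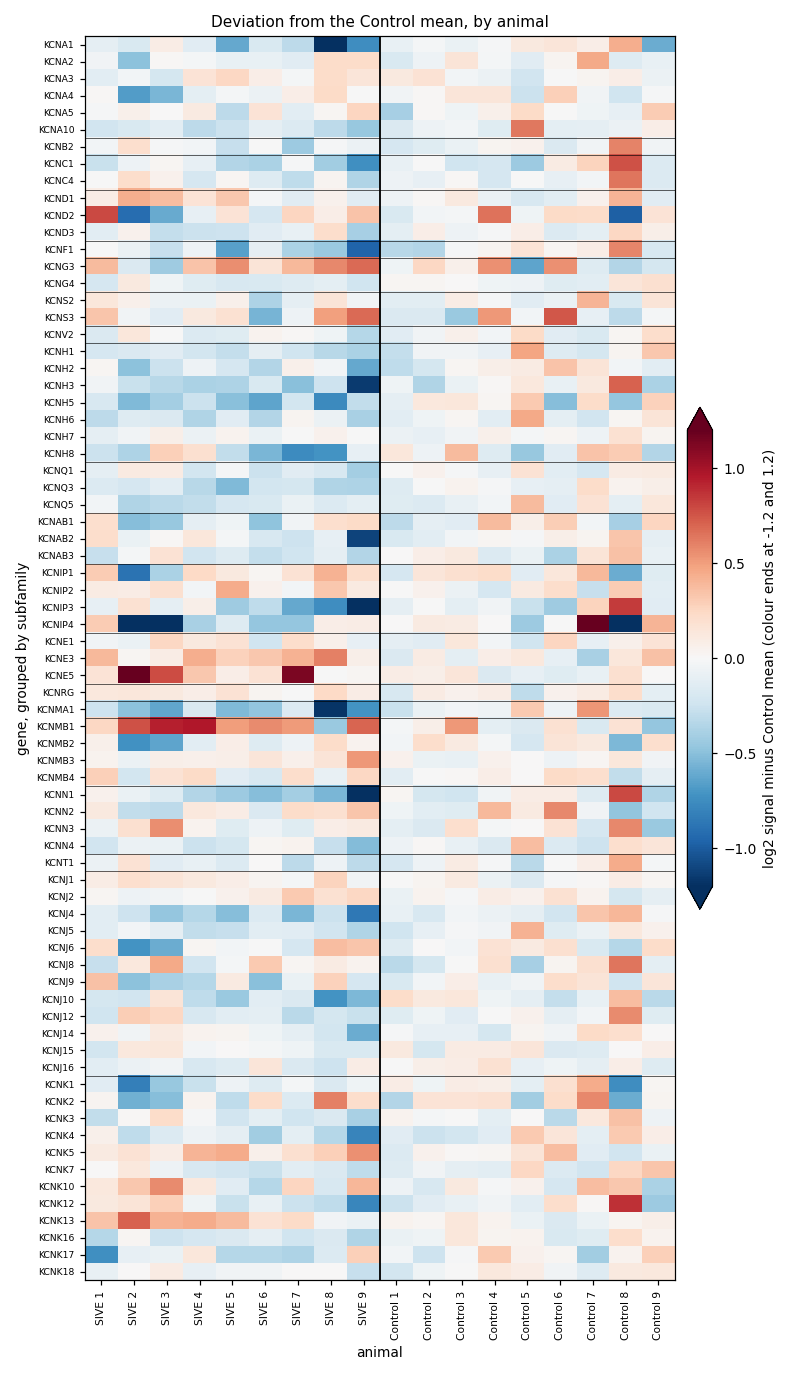
Deviation of each member's log2 signal from its control mean (colour, blue lower and red higher) for 73 genes (vertical, by subfamily) in 9 SIVE animals (left) and 9 controls (right). SIVE 9 has 30 members below the lowest control, and Control 8 deviates from the other controls in many genes.

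In SIVE 2, SIVE 3 and Control 8, the animals of high 3′ signal, several members deviated from the mean of the other animals of their group. Averaged over the 3, the deviation was −1.50 for KCNIP4, −1.0 for KCND2, −0.79 for KCNIP1, −0.66 for KCNMB2 and −0.65 for KCNK2. It was positive for KCNIP3 (0.67), KCNK12 (0.63), KCNE5 (0.56), KCNN1 (0.55) and KCNJ12 (0.53). For KCNIP3, KCNK12 and KCNN1 it was largest in Control 8, at 0.94, 0.98 and 0.89, and smaller in SIVE 2 (0.69, 0.38 and 0.42) and SIVE 3 (0.39, 0.52 and 0.34). For KCNE5 it was largest in SIVE 2 (0.95), and smaller in SIVE 3 (0.51) and Control 8 (0.21). KCNIP4, for example, was 4.24 in SIVE 2 and 4.47 in SIVE 3 and 4.39 in Control 8, and at least 5.43 in every other animal. Beyond 0.5 in absolute size, 9 members (12.3%) deviated downwards and 5 (6.85%) upwards, close to the 11.0% and 8.12% of the named genes. Without the 3 animals the difference between SIVE and controls was −0.33 for KCNIP4, 0.07 for KCND2, −0.40 for KCNIP3, −0.13 for KCNK12, −0.40 for KCNN1 and 0.29 for KCNE5, with none past the threshold. That of KCNMB2 was −0.06, that of KCNIP1 0.14, that of KCNK2 0.02 and that of KCNJ12 −0.14. For KCNQ3, KCNMA1, KCNJ4 and KCNH5 the deviations were 0.12, −0.10, 0.18 and −0.22. The 3′ minus 5′ signal itself averaged 0.442 ± 0.374 in SIVE and 0.415 ± 0.394 in controls (SD, n = 9 each; exact permutation p = 0.917, two-sided). The part of this signal in the members' results was not tested beyond the fits without these animals and with it as a covariate.

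**Figure D5:**
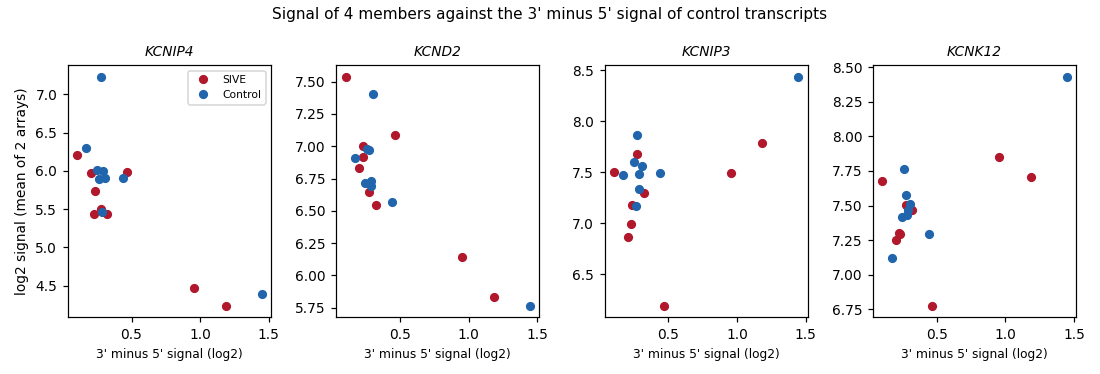
Log2 signal (vertical axis, mean of 2 arrays) of KCNIP4, KCND2, KCNIP3 and KCNK12 against the 3′ minus 5′ log2 signal of control transcripts (horizontal axis) in 9 SIVE animals (red) and 9 controls (blue). The 3 animals at 0.955 to 1.45 are low for KCNIP4 and KCND2, and Control 8 is highest for KCNIP3 and KCNK12.

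Genes that anchor or modulate potassium channels, or move potassium by pump or cotransport, were read beside the channels. Of 34 listed, 13 were measured, 0 passed the test in limma (1 at an unadjusted p below 0.05), 11 had a difference below 0 and the median was −0.08. The largest differences were those of DLG1, a scaffold that clusters channels, at −0.19 ± 0.12 (SE; adjusted p = 0.371), and of SLC12A5, the neuronal potassium-chloride cotransporter, at −0.17 ± 0.13 (SE; adjusted p = 0.482). Averaged over the 13, the level was 8.62 ± 0.11 in SIVE and 8.68 ± 0.11 in controls (SD, n = 9 each; exact permutation p = 0.227, two-sided).

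Cell type markers were read in the same animals, and after adjustment over 12 lists the mean level differed for microglia and macrophage and for endothelial markers. Of the neuron markers 4 of 10 were measured, and 1 was lower: TUBB3, a neuronal tubulin, at −0.51 ± 0.12 (SE; adjusted p = 0.0118). The mean neuron marker level ran over 10.5 to 11.0 in SIVE and 10.6 to 11.3 in controls (exact permutation p = 0.0248, two-sided; adjusted over 12 lists 0.0839). Of 7 astrocyte markers SLC1A2, the astrocytic glutamate transporter, was lower (−0.52 ± 0.11, SE) and GFAP, the astrocyte filament protein, higher (0.36 ± 0.08, SE). Microglia and macrophage markers had 4 of 11 higher (AIF1, PTPRC, LYZ and CD14) and 5 with a difference below 0 that did not pass (CD68, CX3CR1, P2RY12, TMEM119 and ITGAM). Their mean levels were 7.45 to 8.12 in SIVE and 7.05 to 7.56 in controls (exact permutation p = 1.23e-04, adjusted over 12 lists 0.00148). The largest differences in this list were those of LYZ (2.71), PTPRC (1.52) and CD14 (1.18). The marker lists were chosen with earlier results of these data known, so the p-values of their mean levels are descriptive. Endothelial markers had 3 of 6 higher, PECAM1, CDH5 and VWF (exact permutation p = 0.00313, adjusted over 12 lists 0.0188). The listed pericyte markers, RGS5 and PDGFRB, were not among the 6 measured. Oligodendrocyte markers had 2 of 4 lower (MBP and UGT8), the other 2 being above 0 (exact permutation p = 0.0280, adjusted over 12 lists 0.0839). Inhibitory neuron, oligodendrocyte precursor, T cell, choroid plexus, hippocampal region and striatal or thalamic markers had 0 calls in limma among 5, 4, 4, 5, 4 and 4 measured. Of these 26, 7 had an unadjusted p below 0.05. Among the named genes 12.7% had such a p with a lower signal and 12.9% with a higher signal. The part of these markers in the results for KCNQ3, KCNMA1, KCNJ4 and KCNH5, or for KCNK13 and KCNMB1, was not tested.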

How the data were processed

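Hippocampal RNA of 18 animals was hybridised to 36 Affymetrix arrays. The authors deposited 1 table of log2 signals for 52865 probe sets, made with RMA per the submitters' processing notes; its version and probe definitions are not given in the sources used here. RMA sets the probe values of all arrays to a common distribution, then condenses a set's probes to 1 value. Differences are thus relative to the bulk of probe sets, although the deposited array medians still differed, from 5.59 to 5.75. The log2 scale was read from the values, which end at 14.49.

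Left out were 99 control and 59 reporter probe sets; 52707 were tested. Symbols came from the platform annotation, which can be old; 70 of 73 members have the same symbol under the same gene ID in a RefSeq gene table, and all 73 matched it by symbol. Signals of different probe sets are not on a common scale of abundance, so their order was used only to choose probe sets and names. The 2 arrays of an animal were averaged and counted as 1 replicate; the labels call them technical, and whether they share an RNA extract is not stated. Tests used limma 3.58.1 in R 4.3.3 (two-sided, lmFit followed by eBayes), and p-values were adjusted by Benjamini-Hochberg across the 52707 probe sets, with 0.05 as the threshold. The effects with and without anti-CD8 and their difference came from 1 fit with a mean for each combination of group and treatment. Single values per animal were compared by exact permutation over animals, for which the smallest two-sided p is 4.11e-05. Figures were drawn with matplotlib 3.10.9.

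The members, the partner list and the marker lists were chosen with earlier results of these data known. By rule the text names every member past the threshold, and in each subfamily the member of highest level and that of largest difference (30 members). It also names members past the threshold within a treatment and the 2 partner genes with the largest differences. All other members and markers named were chosen after their values were seen.

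Alternatives varied the arrays used, normalization, a filter on dim probe sets, covariates (anti-CD8, age, 3′ minus 5′ signal), the replicate block, the summary over probe sets, and left out each animal. Replicate numbers were checked for pairing: same-numbered animals deviated with correlations of −0.488 to 0.0888, so the numbers do not pair the animals. No hybridisation batch or date was used here, since neither the labels nor the table name one. No genome of the array's design was used, so no coordinates or sequences are given.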

Additional observations from a re-analysis of the deposited data

Results flagged for a closer look

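Animals standing apart from the others of their group were looked for in each group of 9. By Dixon's test at the 95% level 17 of 146 groups held one, where chance gives about 5 in 100. The members share the same animals, so the groups are not independent. The share over the named genes was not computed, so the count is not a result particular to the members. SIVE 9 lay below the lowest control for 29.5% of the named genes and above the highest for 23.6%. The values are log2 signals. SIVE 9 was low for KCNAB2 (10.02), KCNH3 (7.51), KCNJ14 (4.25) and KCNN1 (6.52), and high for KCNMB3 (4.84). Other SIVE animals apart from their group were SIVE 8, low for KCNMB1 (5.70), SIVE 3, high for KCNN3 (6.97), and SIVE 6, low for KCNS2 (5.78). Control 8 was high for KCNAB2 (11.5), KCNB2 (7.49), KCNC4 (8.35), KCNH3 (9.36), KCNJ12 (7.96), KCNK12 (8.43) and KCNN1 (8.60), and low for KCNK1 (7.14). Control 5 was high for KCNA10 (5.55).

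For KCNAB2, KCNH3 and KCNN1 the low SIVE 9 and the high Control 8 both add to a negative difference between the groups. Leaving out 1 animal at a time kept the difference of KCNH3 between −0.43 and −0.29 and that of KCNN1 between −0.47 and −0.30, and neither gene passed the threshold in these fits. The beta subunit KCNAB2 ranged from −0.20 to −0.04 in the same fits. KCNMB1 passed the threshold without SIVE 8.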

How the results depend on the processing

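No result changed direction while past the threshold. KCNQ3 passed in all 15 alternatives (adjusted p 0.00323 to 0.0478) and KCNMA1 in 13 (0.00288 to 0.282), both in all 18 fits with 1 animal left out; KCNJ4 passed in 12 and 12, and KCNH5 in 10 of 14 and 6. The median over the members stayed between −0.13 and −0.08.

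Higher members numbered 4 with all 36 arrays and the animal as a random block (lower 8), 1 with the first technical arrays, 2 with median centring (KCNE3 and KCNK13), 2 with quantile normalization, 1 with anti-CD8 as covariate (lower 9), 4 with the 3′ minus 5′ signal, 1 without SIVE 2, SIVE 3 and Control 8, and 1 without SIVE 9 and Control 8, a choice made after seeing the data. Lower probe sets were 683, and 1414 and 317 with the first or second technical arrays, 398 after median centring, 416 among brighter probe sets, 2785 with anti-CD8 as covariate, 1966 with the 3′ signal (higher 2872) and 1301 without the 3 animals. Higher calls were 73.7% of all calls, and 84.4% after median centring, 59.3% with first arrays, 47.4% with anti-CD8 as covariate and 59.4% with the 3′ signal. The cause was not tested.

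The replicate block gave 164 lower and 1204 higher probe sets and 3 lower members (KCNH5, KCNMA1 and KCNQ3; KCNJ4 had adjusted p = 0.108); 0 SIVE animals correlated best with the control of their own number. Without anti-CD8 the block gave 27 lower and 504 higher probe sets and 0 lower members, with anti-CD8 2 and 10, and for the difference of effects 2 lower.

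Without anti-CD8, leaving out the 3 animals gave 816 lower probe sets and 6 lower and 1 higher members; fitting only the contrast's animals gave 634, 4 and 1. With anti-CD8, leaving out the 3 animals gave 176 higher and 29 lower probe sets and a median of −0.019; the brightness filter gave 31 lower, and only the contrast's animals 108 higher and 2 lower.

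With 1 animal left out, SIVE against Control gave 1628 to 2102 higher and 394 to 996 lower probe sets, 0 to 2 higher and 2 to 5 lower members and a median of −0.13 to −0.08. Without anti-CD8 it gave 877 to 1229 higher and 187 to 441 lower probe sets, and 0 to 1 higher and 0 to 4 lower members. With anti-CD8 it gave 326 to 532 higher and 25 to 350 lower probe sets, 0 members and a median of −0.14 to −0.032.

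The number of animals and dim signal limit these results: 26 of 73 members lie below the median of all probe sets. For the difference of effects, fitting only the animals of the contrast is the same fit, since it uses all 18.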
